A study of Mus musculus with 18 samples.

Results

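This account follows 33 genes of fatty acid oxidation, of 55401 genes counted, through 18 RNA libraries of primary mouse cholangiocytes, the epithelium of the bile ducts. The genes were taken from a list by symbol, and 33 of 33 were matched to their Ensembl identifiers. The list holds 18 mitochondrial genes, 6 peroxisomal enzymes, 1 enzyme of both compartments (Crat), 3 genes of uptake and activation, 4 regulators and the carrier gene Ucp2. The libraries form 6 groups of 3. Untreated wild-type (WT) and PLD mice were sampled at 1 month and at 2 months after induction with tamoxifen, which both genotypes share; PLD stands for polycystic liver disease, a disorder of cysts that form from bile ducts. The other groups are PLD mice labelled 3 months and given CPTH6, known to inhibit histone acetyltransferases, or ML324, known to inhibit KDM4 histone demethylases. The labels name neither the mutated gene nor the Cre driver nor the age of the mice, and give no dose. Cells were taken from digested bile ducts with beads carrying an antibody to EpCAM, an epithelial surface protein. The labels do not say whether the 3 libraries of a group came from separate mice, so p-values measure only the spread between these libraries, which may be technical.

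Long-chain fatty acids enter the cell partly through Cd36, are joined to coenzyme A by acyl-CoA synthetases, and cross into mitochondria on carnitine. There, chain-length specific dehydrogenases, hydratases and thiolases shorten them in repeated rounds, and electron transfer flavoprotein passes the electrons on to the respiratory chain. Peroxisomes start on very long and branched chains with their own enzymes and hand shortened products on. PPAR alpha and its coactivators are known to raise transcription of many of these genes in liver, where hepatocytes carry most of the pathway.

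Each library held between 16345740 and 29277311 read pairs assigned to genes. Levels are CPM, the read pairs of a gene relative to the TMM-scaled library size, and changes are log2 fold changes ± standard error from the quasi-likelihood test of edgeR, with n = 3 libraries a group. A gene is called higher or lower where its Benjamini-Hochberg adjusted p, over all genes tested, lies under 0.05. The cholangiocyte markers were present in every group, with a sum over 10 markers of 2373 to 4586 CPM in WT and 13070 to 14690 in PLD at 2 months. In each of these WT libraries the endothelial sum (6774 to 12040 CPM) and the stellate cell and fibroblast sum (5595 to 12280) were higher. In PLD at 2 months those sums were 510 to 1322 and 3212 to 7359, below the cholangiocyte sum. The genotypes thus differed in their marker mix, though sums of different markers do not measure shares of cells. WT replicate 3 at 1 month stood apart from its group, with a cholangiocyte sum of 9276 CPM against 3320 and 3537 and a stellate cell and fibroblast sum of 2427 against 13530 and 14920. WT replicate 1 at 2 months had a count for 40039 genes, against 22780 to 30332 in the other libraries. In bulk RNA, fewer cells of a type and less RNA per cell cannot be told apart.

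The promoters of 4 members are shown for their place in the results below: Hadha, with the smallest p at 2 months, and Hadhb, its partner, the subunit genes of the mitochondrial trifunctional protein that lie head to head on chromosome 5, Cpt1a of the carnitine shuttle, and the peroxisomal isomerase gene Eci2. Each is the RefSeq window (GRCm38.p6, the mm10 assembly) of 250 bases before to 50 bases after a start site, 5′ to 3′ on the gene's strand. Capitals mark each GC box (GGGCGG, or CCGCCC on the other strand) and each nuclear receptor motif (AGGTCA or TGACCT). The windows lie at chr5:30154931-30155230, minus strand for Hadha, chr5:30155003-30155302, plus strand for Hadhb, chr19:3323051-3323350, plus strand for Cpt1a and chr13:34994095-34994394, minus strand for Eci2.
Hadha: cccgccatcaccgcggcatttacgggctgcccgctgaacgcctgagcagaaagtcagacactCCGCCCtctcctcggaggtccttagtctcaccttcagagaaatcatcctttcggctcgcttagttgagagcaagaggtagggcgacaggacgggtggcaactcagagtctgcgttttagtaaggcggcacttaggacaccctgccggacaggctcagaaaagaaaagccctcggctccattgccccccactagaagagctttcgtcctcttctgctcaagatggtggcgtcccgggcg
Hadhb: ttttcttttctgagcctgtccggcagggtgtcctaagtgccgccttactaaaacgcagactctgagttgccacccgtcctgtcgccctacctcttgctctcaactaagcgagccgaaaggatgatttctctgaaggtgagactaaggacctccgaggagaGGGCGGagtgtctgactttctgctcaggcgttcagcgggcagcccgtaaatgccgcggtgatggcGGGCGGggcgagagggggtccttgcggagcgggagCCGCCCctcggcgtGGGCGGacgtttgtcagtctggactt
Cpt1a: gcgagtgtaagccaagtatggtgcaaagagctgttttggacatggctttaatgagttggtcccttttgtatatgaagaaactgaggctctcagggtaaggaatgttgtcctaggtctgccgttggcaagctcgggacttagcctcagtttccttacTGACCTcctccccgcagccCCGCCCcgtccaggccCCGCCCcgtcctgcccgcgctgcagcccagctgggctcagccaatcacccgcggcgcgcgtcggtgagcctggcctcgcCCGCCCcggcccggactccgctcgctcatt
Eci2: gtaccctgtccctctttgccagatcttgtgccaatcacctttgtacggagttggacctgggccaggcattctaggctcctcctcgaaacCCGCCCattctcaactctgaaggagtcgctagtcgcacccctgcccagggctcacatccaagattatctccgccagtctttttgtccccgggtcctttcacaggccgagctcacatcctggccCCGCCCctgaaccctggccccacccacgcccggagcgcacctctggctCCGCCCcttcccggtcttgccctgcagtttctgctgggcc
The Hadha and Hadhb start sites lie 273 bases apart and their windows share 228 bases, read on opposite strands. Hadhb held 4 GC boxes in its window, Cpt1a and Eci2 held 3 each, and Hadha held 1. The box of Hadha is the first of the 4 printed for Hadhb, read on the other strand. Cpt1a also held 1 nuclear receptor motif.

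RefSeq windows were used for 28 of the 33 members, 29 windows in all. Acaa2, Crat, Decr1, Hsd17b4 and Ppargc1b were not used here. On either strand, 22 of the 29 windows held the GC box (75.9%), against 35.7% of all 32851 promoter windows and 46.2% of the windows of coding genes. The TATA box (TATAAA) was in 0 windows, against 13.6% of all windows. The nuclear receptor motif AGGTCA was in 5 windows (17.2%), those of Acadm, Acadvl, Cd36, Cpt1a and Echs1, against 16.3% of all windows. The PPAR element, in which that motif stands as a direct repeat with 1 base between the copies, was in 0 windows, against 0.0396% of all windows, and the estrogen-related receptor element TCAAGGTCA, which contains the same motif, in 0 against 0.423%. The letters TCACNCCAC of a sterol element were in 3 windows (10.3%), those of Acsl1, Ehhadh and Ucp2, against 1.24% of all. These are matches of letters in short windows, and no factor's binding was measured.

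Between genes, levels were compared per kilobase of exon. Acaa2, the mitochondrial thiolase for medium and long chains, stood first among the 33 genes in 5 of 6 groups, with group means of 55.0 to 101 CPM per kilobase. Cd36 stood first in WT at 2 months (106 ± 25.5 CPM per kilobase, SD, n = 3), against 50.6 ± 8.72 for Acaa2. In PLD at 2 months Acaa2 (101 ± 15.9) was followed by Acadl (71.1 ± 10.4), the long-chain acyl-CoA dehydrogenase, and Ucp2 (45.7 ± 6.68), while Cd36 was at 8.83 ± 3.08. The order of Ucp2, Etfa (44.5 ± 1.64) and Pdk4 (42.6 ± 15.4) in that group lay within their spread. Ppara, which encodes PPAR alpha, had the lowest level per kilobase in all 6 groups (0.451 to 0.824), and Ppargc1b the next lowest (0.582 to 1.89). Levels of Etfb and Acadvl are understated, because 58.25% and 42.85% of their exon bases overlap another gene and read pairs that fit 2 genes were not counted. Acaa1a has a close copy, Acaa1b, so its counts are uncertain.

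At 2 months most mitochondrial genes were higher in PLD than in WT cells. Of the 33 members 19 were called higher and 3 lower, against 19.7% and 20.3% of the 17749 genes tested (40% in both directions). The members' median change was 0.49 and that of all genes -0.03. Of the 18 mitochondrial genes, 14 were called higher and 1 lower (Acadsb), with a median of 0.53. Libraries of the 2 genotypes did not overlap for 20 members that were higher and 4 that were lower in PLD, against 26.1% and 29.3% of all genes. The calls of Cpt1a, Slc25a20, Acadl, Acads, Acadsb, Hadha, Hadhb, Hadh, Acaa2, Eci1, Etfa, Etfb, Acaa1a, Eci2, Cd36 and Ucp2 held when each library of the 2 groups was left out in turn.

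**Figure D1:**
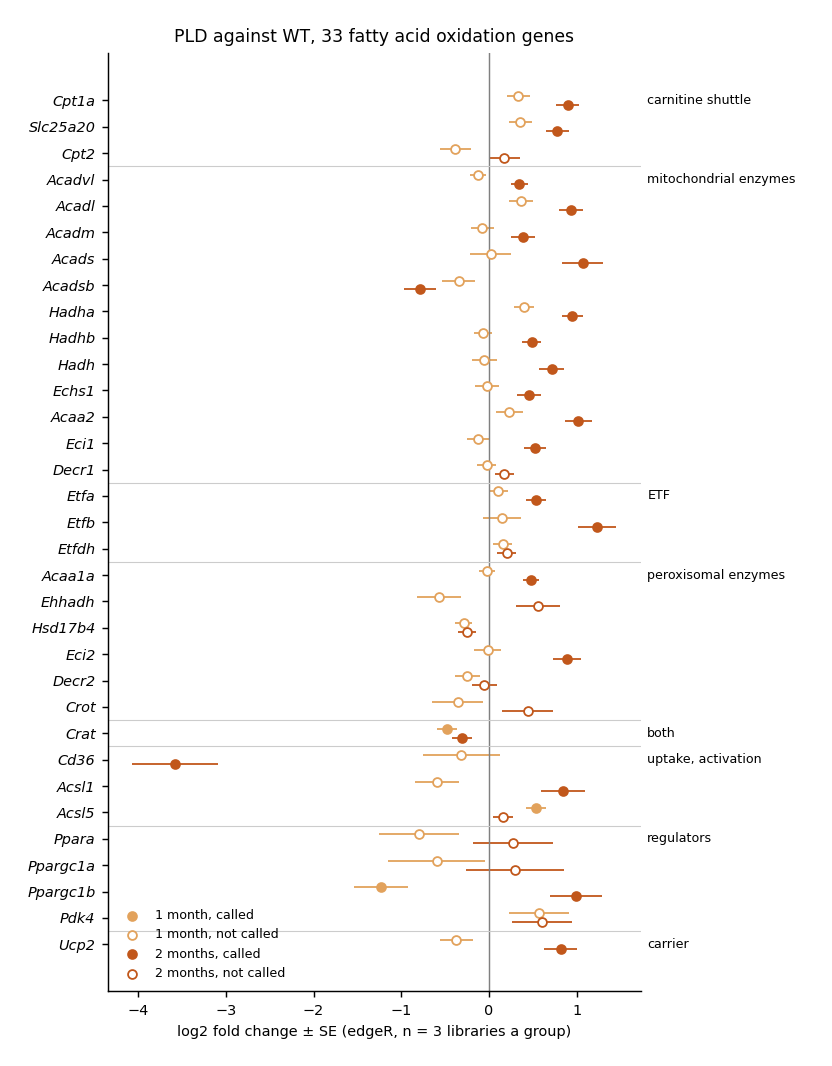
Change in PLD against WT for the 33 genes, by role. The horizontal axis is the log2 fold change, points are edgeR estimates at 1 month (light) and 2 months (dark), bars are standard errors (n = 3 libraries a group), and filled points are called. At 2 months 14 of 18 mitochondrial genes lie to the right of 0 as filled points, and Cd36 lies far to the left at -3.58.

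The carnitine shuttle was led by Cpt1a (ENSMUSG00000024900.5, chromosome 19 from 3322334 to 3385733, plus strand, mm10), whose outer membrane enzyme sets the rate of fatty acid entry. Cpt1a stood at 149, 159.9 and 169 CPM in WT and 258, 335 and 289 in PLD at 2 months. Each PLD library was above each WT library, a change of 0.90 ± 0.13 (adjusted p = 0.00054, edgeR). Slc25a20, the carrier that exchanges acylcarnitine across the inner membrane, stood at 24.1 to 25.5 CPM in WT and 38.5 to 46.5 in PLD, and rose by 0.78 ± 0.13 (adjusted p = 0.00124, edgeR). Cpt2, which returns the acyl group to coenzyme A inside, stood at 11.3 to 15.0 CPM and 14.4 to 16.5, overlapped, and had a difference of 0.17 ± 0.18 that was not called.

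Among the dehydrogenases of the first step, those for long and short straight chains rose. Acadl stood at 71.3, 72.8 and 81.7 CPM in WT and 120.4, 162 and 146 in PLD, a rise of 0.94 ± 0.14 (adjusted p = 0.000559, edgeR). Acads, for short chains, stood at 20.3, 16.6 and 20.2 CPM in WT and 41.2, 36.3 and 40.5 in PLD, a rise of 1.07 ± 0.23 (adjusted p = 0.00496). For both genes the lowest PLD library was above the highest WT library. Acadvl, for very long chains, and Acadm, for medium chains, rose by less, 0.34 and 0.39. The call of Acadvl was lost without WT replicate 1 at 2 months, and that of Acadm without any 1 of 4 libraries (WT replicates 1 and 2, PLD replicates 1 and 2).

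Acadsb, the dehydrogenase for short branched chains from isoleucine breakdown, went the other way. It stood at 54.0, 59.9 and 61.8 CPM in WT and 30.1, 40.3 and 30.3 in PLD. All 3 PLD libraries were below all 3 WT libraries, a change of -0.79 ± 0.18 on the log2 scale (adjusted p = 0.00702, edgeR). It was the 1 mitochondrial member of 18 called lower.

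In the later steps of the spiral, hydration, second oxidation and thiolysis, Echs1, Hadha, Hadhb, Hadh and Acaa2 rose. Hadha (ENSMUSG00000025745.12, chromosome 5 from 30118304 to 30155162, minus strand), which carries the long-chain hydratase and dehydrogenase activities of the trifunctional protein, stood at 133, 151 and 133 CPM in WT and 252, 292 and 254 in PLD. Its PLD libraries were 1.93-fold higher in the mean, a change of 0.95 ± 0.12 with the smallest p of the 33 members (5.06e-06 before and 0.000218 after adjustment, edgeR). Hadhb (ENSMUSG00000059447.13, chromosome 5 from 30155248 to 30184593, plus strand), the thiolase subunit transcribed from the facing start site, stood at 57.7, 71.6 and 68.5 and 87.9, 94.0 and 91.8 CPM. It rose by 0.49 ± 0.11 (adjusted p = 0.00465), also without overlap between the genotypes. The difference between the changes of the 2 genes was not tested.

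Acaa2 (ENSMUSG00000036880.10, chromosome 18 from 74779197 to 74806208, plus strand) stood at 61.7, 82.4 and 86.3 CPM in WT and 140.3, 182 and 139 in PLD, a 2.02-fold rise (1.02 ± 0.16, adjusted p = 0.000713, edgeR). Hadh, the 3-hydroxyacyl-CoA dehydrogenase for shorter chains, stood at 53.0 to 64.2 and 92.6 to 97.2 CPM and rose by 0.71 ± 0.14 (adjusted p = 0.00279). Echs1, the short-chain hydratase, and Eci1, the enoyl-CoA isomerase for unsaturated chains, rose by 0.46 and 0.52, and the call of Echs1 was lost without any 1 of the same 4 libraries as that of Acadm. Decr1, the dienoyl-CoA reductase, overlapped between the genotypes and was not called (0.18 ± 0.11).

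Both subunits of electron transfer flavoprotein rose. Etfb stood at 3.04, 3.33 and 3.09 CPM in WT and 8.49, 7.62 and 5.88 in PLD, the largest positive change among the members (1.23 ± 0.22, adjusted p = 0.00171, edgeR), in a gene that shares most of its exon bases with others. Etfa stood at 53.0 to 60.2 CPM in WT and 78.1 to 83.6 in PLD and rose by 0.53 ± 0.11 (adjusted p = 0.00356). Etfdh, which passes the electrons to ubiquinone, overlapped and was not called (0.20 ± 0.10).

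**Figure D2:**
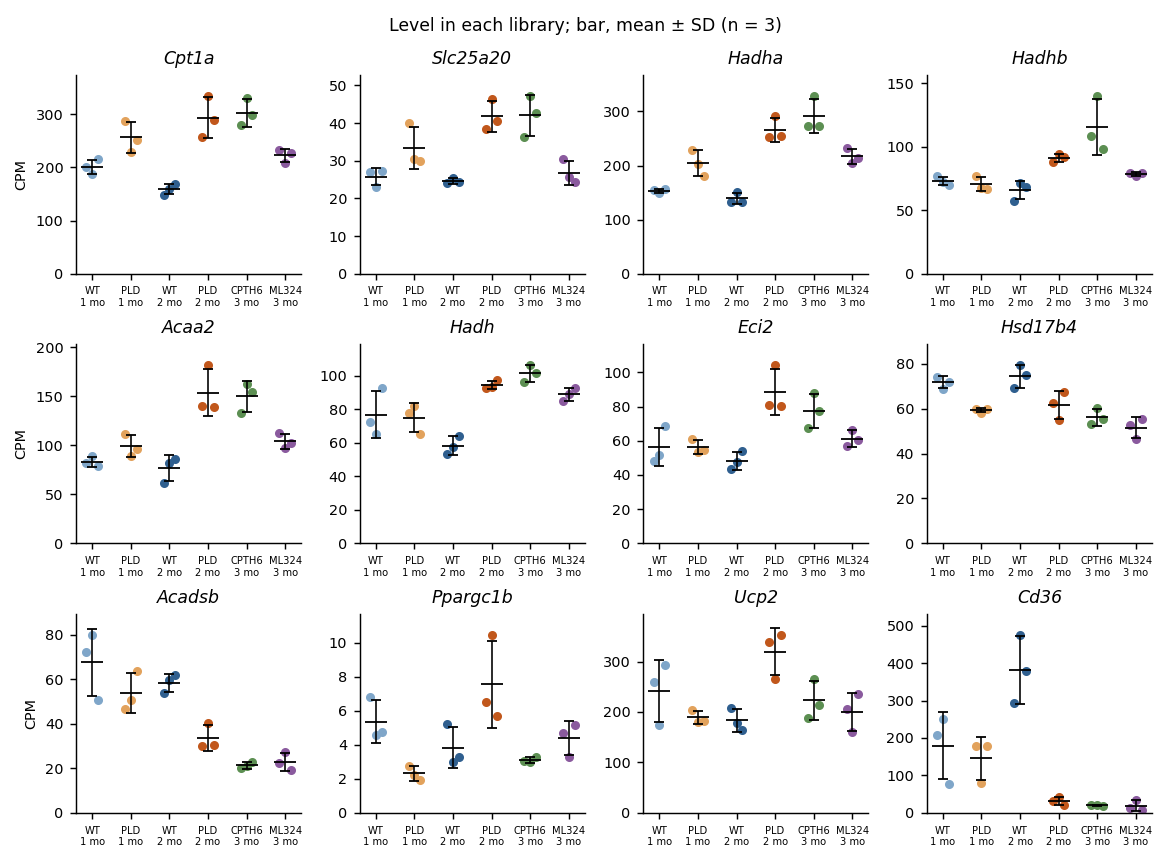
Level of 12 members in each of the 18 libraries. The vertical axis is CPM from 0, points are libraries, and black bars are the mean ± SD of a group (n = 3). Hadha and Cpt1a are higher in every PLD library than in every WT library at 2 months, while Cd36 and Acadsb are lower in every one.

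Of the 6 peroxisomal enzymes 2 were called higher and 0 lower by edgeR at 2 months (4 of 6 at an unadjusted p under 0.05), beside 19.7% and 20.3% of all genes, and their median change was 0.46. Eci2 (ENSMUSG00000021417.15, chromosome 13 from 34977748 to 35027096, minus strand), an isomerase for unsaturated chains, stood at 43.6, 47.5 and 54.0 CPM in WT and 81.1, 104 and 80.2 in PLD, a rise of 0.89 ± 0.16 (adjusted p = 0.00157, edgeR). Acaa1a, the peroxisomal thiolase, stood at 75.9 to 92.9 and 113 to 116 CPM and rose by 0.48 ± 0.09 (adjusted p = 0.00272). In both, the genotypes did not overlap.

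Hsd17b4, the D-bifunctional protein that acts on very long and branched chains, stood at 69.1, 79.3 and 75.1 CPM in WT and 62.8, 55.2 and 67.6 in PLD. Its PLD libraries were all below the WT libraries, yet the difference of -0.25 ± 0.10 was not called (adjusted p = 0.0726, edgeR). Ehhadh, the L-bifunctional protein and a known PPAR alpha target, had 0.56 ± 0.25 (adjusted p = 0.0981), and Crot, which makes medium-chain acylcarnitines for export, 0.44 ± 0.29 (adjusted p = 0.247). Decr2, the peroxisomal dienoyl-CoA reductase, had -0.06 ± 0.14 and overlapped.

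Set side by side, the mean log2 CPM of the 18 mitochondrial genes exceeded that of the 6 peroxisomal enzymes by 0.16 to 0.32 in WT libraries and by 0.39 to 0.48 in PLD libraries at 2 months, without overlap. At 1 month the difference was 0.41 to 0.54 in PLD and 0.32, 0.36 and -0.03 in WT, the last in replicate 3, whose peroxisomal mean was the highest of the 18 libraries (5.79). It was 0.50 to 0.61 with CPTH6 and 0.48 to 0.56 with ML324. The difference rests on chosen genes, was not scaled to exon length and was given no test. Its size and sign within a library therefore do not rank the 2 compartments. The 17 genes of the tricarboxylic acid cycle had 7 called higher and 0 lower at 2 months, with a median of 0.27. Of all genes 19.7% were called higher and 20.3% lower (40% in both directions).

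**Figure D3:**
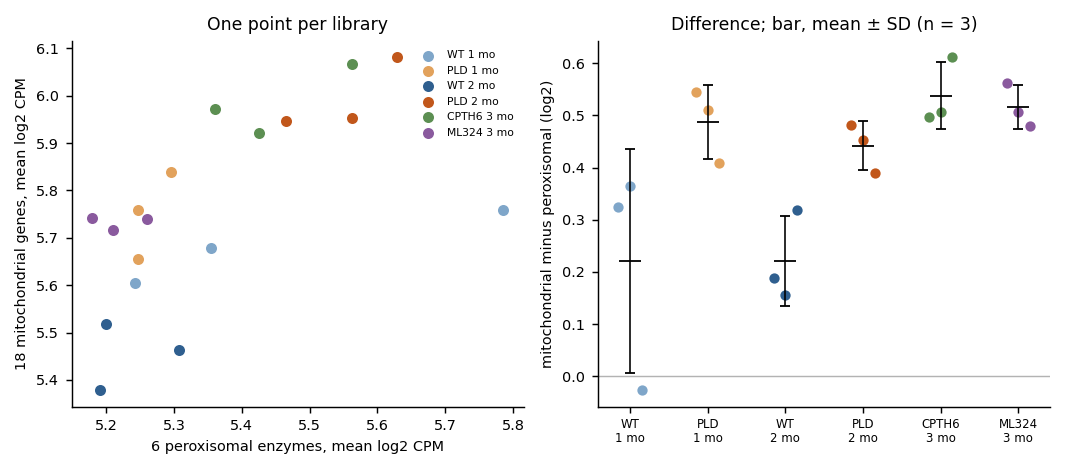
Mitochondrial against peroxisomal genes in each library, not scaled to exon length. Left, mean log2 CPM of the 18 mitochondrial genes against that of the 6 peroxisomal enzymes; right, their difference by group, with the mean ± SD (n = 3). At 2 months the WT libraries lie at 0.16 to 0.32 and the PLD libraries at 0.39 to 0.48, and WT replicate 3 at 1 month lies lowest at -0.03.

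Related enzymes of the 2 compartments kept one order per kilobase in these libraries. Acaa2 exceeded Acaa1a by a log2 ratio of 1.24 to 1.63 in WT and 1.83 to 2.19 in PLD at 2 months, without overlap. Hadha exceeded Ehhadh by 2.30 to 2.59 and 2.56 to 3.07, which overlapped, and by 3.38 to 3.62 with CPTH6 and 3.05 to 3.91 with ML324. For the isomerases the ratio of Eci1 to Eci2 was smaller in PLD, 0.41 to 0.63 in WT and 0.04 to 0.20 in PLD. For the reductases Decr1 exceeded Decr2 by 0.59 to 0.84 in WT and 0.74 to 1.01 in PLD. Crat, whose acetyltransferase acts in both organelles, stood at 33.8, 38.5 and 31.8 CPM in WT and 27.8, 27.7 and 27.3 in PLD, a change of -0.31 ± 0.11 on the log2 scale (adjusted p = 0.0471, edgeR) that was lost without any 1 of the 6 libraries.

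Cd36 showed the widest difference of the 33 genes. It stood at 292, 475 and 378 CPM in WT and 32.8, 42.2 and 20.1 in PLD at 2 months, 11.9-fold lower in the PLD mean (-3.58 ± 0.49, adjusted p = 0.000382, edgeR). Acsl1, an acyl-CoA synthetase, stood at 30.9, 25.8 and 32.95 and 59.1, 62.5 and 37.2 CPM, a rise of 0.84 ± 0.25 (adjusted p = 0.0214) that was lost without any 1 of 4 libraries (WT replicates 1 and 2, PLD replicates 1 and 2). Acsl5, a second synthetase, was not called at 2 months (0.16 ± 0.11).

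Of the regulators, Ppargc1b (PGC-1 beta, a coactivator of nuclear receptors) was called. It stood at 5.23, 2.98 and 3.30 CPM in WT and 6.52, 10.5 and 5.68 in PLD at 2 months, a rise of 0.99 ± 0.30 (adjusted p = 0.0227, edgeR) in a gene of low level. The call was lost without PLD replicate 2, WT replicate 2 or WT replicate 3. Ppara stood at 1.499 to 2.48 CPM in WT and 1.75 to 3.06 in PLD (0.28 ± 0.46), and Ppargc1a (PGC-1 alpha) had 0.30 ± 0.56. Pdk4, a kinase that turns off pyruvate dehydrogenase when fat is burnt, had 0.60 ± 0.34. These 3 overlapped between the genotypes. Ucp2, a carrier of the inner membrane, stood at 209, 179 and 164 CPM in WT and 339, 266 and 353 in PLD and rose by 0.82 ± 0.19 (adjusted p = 0.0069, edgeR).

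Markers of other cells moved with these changes. All 12 endothelial markers were called lower in PLD at 2 months, and their sum ran from 6774 to 12040 CPM in WT and from 510 to 1322 in PLD, with 0 of the 12 absent. Cd36, which capillary endothelium is known to carry, was highest in the library with the highest endothelial sum (WT replicate 2 at 2 months, 475 CPM beside 12040) and was 7.79 to 35.1 CPM in the ML324 libraries, whose sums were 122 to 613. With the mean log2 CPM of the endothelial markers as a covariate, 1 of the 22 members called at 2 months kept its call (Acaa2), and 1 member not called before was called. Under that covariate Cd36 had -0.60 (adjusted p = 0.412, edgeR), Hadha 1.10 (0.0576) and Acaa2 1.61 (0.0358), and Acads, Ucp2 and Acadsb changed sign. Since the endothelial sums of the genotypes did not overlap at 2 months, genotype and cell mix cannot be told apart in full. The share of all genes called under this covariate is not given here, so the loss of calls is not a result about the members alone. The sum of 12 hepatocyte markers was 680 to 1002 CPM in WT and 3178 to 6129 in PLD. In PLD it was led by Alb (mean 3612 CPM), Apob (712) and Cyp2e1 (476), which in WT had 595, 19.3 and 44.8. The hepatocyte enzymes Cps1, Cyp3a11 and Cyp2c29 had means of at most 0.191 CPM in PLD and of 3.03, 1.21 and 1.15 in WT. With the mean log2 CPM of the hepatocyte markers as the covariate, 20 of the 22 calls remained. That mean overlapped between the genotypes, 2.82 to 4.30 in WT and 3.75 to 4.395 in PLD at 2 months. The fit therefore could not adjust for the difference in the sum, whose part in the members' changes was not tested. The adipocyte sum was at most 3.34 CPM in the 18 libraries. For stellate cells and fibroblasts, 4 of 10 markers were called lower in PLD at 2 months, with sums of 5595 to 12280 CPM in WT and 3212 to 7359 in PLD. Of 10 macrophage markers 4 were called lower and 1 higher, with sums of 522 to 999.5 and 746 to 1304. Of 10 cholangiocyte markers 8 were called higher. The part of these 3 lists in the members' differences was not tested.

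**Figure D4:**
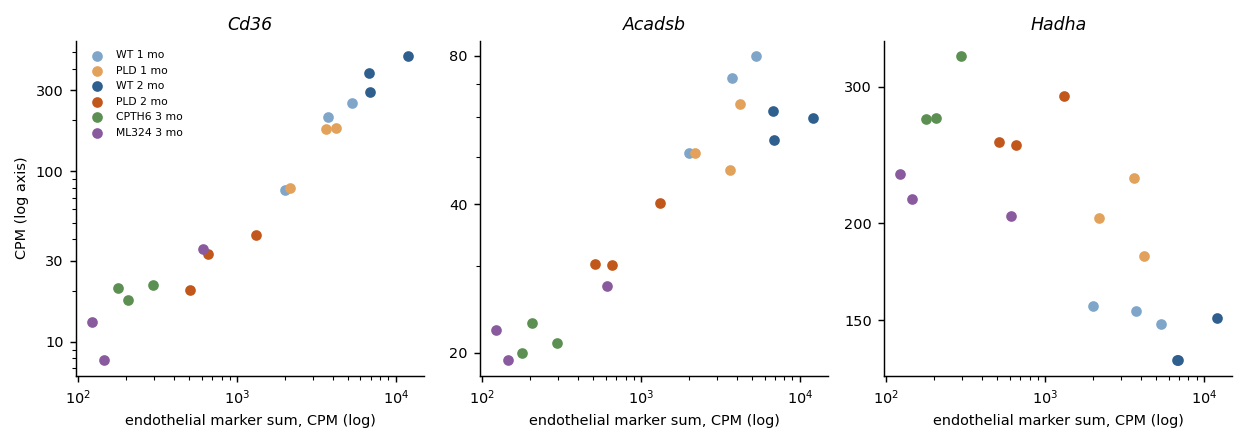
Level of Cd36, Acadsb and Hadha against the summed level of 12 endothelial markers in the 18 libraries, both on log axes in CPM. Cd36 spans 7.79 to 475 CPM and is highest where the endothelial sum is highest, and Hadha is 252 to 292 CPM in the PLD libraries at 2 months, where that sum was 510 to 1322.

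At 1 month few members differed. Of the 33, 1 was called higher and 2 lower, against 3% and 2.02% of all genes tested (5.03% in both directions). The median change was -0.07, and -0.05 over all genes. Of the mitochondrial genes 0 of 18 were called by edgeR and of the peroxisomal enzymes 0 of 6 (4 and 2 at an unadjusted p under 0.05), while DESeq2 called 1 mitochondrial gene, Hadha, and 0 peroxisomal enzymes. Acsl5 stood at 87.5, 96.7 and 86.7 CPM in WT and 135, 136 and 128 in PLD, a rise of 0.54 ± 0.11 (adjusted p = 0.026, edgeR). Crat stood at 37.4, 36.1 and 35.8 CPM in WT and 22.9, 26.9 and 29.5 in PLD, a change of -0.48 ± 0.11 on the log2 scale (adjusted p = 0.0385). Ppargc1b stood at 6.81, 4.56 and 4.74 and 2.77, 2.25 and 1.94 CPM, a change of -1.23 ± 0.31 (adjusted p = 0.0459). In each of these 3 genes the libraries of the genotypes did not overlap. Without WT replicate 3 these 3 were among 5 members called, and the share of all genes called in that fit is not given here. Acsl5 and Crat were lost without any 1 of 4 libraries (WT replicates 1 and 2, PLD replicates 1 and 2), and Ppargc1b also without PLD replicate 3. Libraries did not overlap for 8 members that were higher and 4 that were lower in PLD, against 15.1% and 11.6% of all genes. Cpt1a, Slc25a20, Acadl and Hadha were already higher in every PLD library at 1 month, with changes of 0.33, 0.35, 0.36 and 0.40 that edgeR did not call (Hadha adjusted p = 0.0683, and 0.0219 by DESeq2). Ppara (-0.80 ± 0.45), Ppargc1a (-0.59 ± 0.55) and Pdk4 (0.57 ± 0.34) were called by neither tool.

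Between 1 and 2 months, PLD cells had 6 members called higher and 2 lower, against 4.38% and 5.23% of all genes (9.61% in both directions). Ppargc1b went from 2.77, 2.25 and 1.94 to 6.52, 10.5 and 5.68 CPM, 3.30-fold higher (1.72 ± 0.31, adjusted p = 0.0145, edgeR). Ucp2 rose by 0.78 ± 0.19, Eci2 by 0.67 ± 0.16, Acaa2 by 0.65 ± 0.15, Eci1 by 0.52 ± 0.12 and Hadhb by 0.39 ± 0.11. Cd36 fell from 178, 79.4 and 179.9 to 32.8, 42.2 and 20.1 CPM (-2.18 ± 0.46, adjusted p = 0.0209), and the change of Acadsb was -0.66 ± 0.18. Ppara (0.31 ± 0.46), Ppargc1a (0.12 ± 0.55) and Pdk4 (-0.49 ± 0.34) were not called. Libraries did not overlap for 16 members that were higher and 3 that were lower at 2 months, against 19.5% and 24% of all genes. The calls depend on single libraries: leaving out 1 left 0 to 3 members called. That of Ppargc1b was lost in 1 case of 6 (without PLD replicate 3 at 1 month). How many of all genes were called in these fits is not given here. The endothelial sum fell over the same interval from 2174 to 4201 CPM to 510 to 1322.

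In WT cells edgeR called 0 of 33 members between 1 and 2 months (9 at an unadjusted p under 0.05, 0 by DESeq2), against 0.0113% of all genes called higher and 0.0394% lower (0.0507% in both directions), and 30 of 33 estimates were negative, with a median of -0.27. Acsl5 (0.39 ± 0.11, adjusted p = 0.158) and Hadh (-0.41 ± 0.14, adjusted p = 0.213) had the smallest p by edgeR. Libraries did not overlap for 2 members that were higher and 8 that were lower, against 9.35% and 7.38% of all genes. The test of the difference between the genotype effects at 2 months and at 1 month called 5 members higher and 1 lower, against 2.55% and 3.13% of all genes (5.68% in both directions). The median of this difference was 0.55 over the mitochondrial genes, 0.65 over the peroxisomal enzymes and 0.02 over all genes. Ppargc1b had 2.22 ± 0.43 (adjusted p = 0.0213, edgeR), being lower in PLD at 1 month and higher at 2 months. Cd36 had -3.26 ± 0.64 (adjusted p = 0.0226), Ucp2 1.19 ± 0.27, Acsl1 1.43 ± 0.35, Eci2 0.90 ± 0.22 and Hadh 0.77 ± 0.20. Each of these 6 calls was lost without some single library, from 2 of 12 for Ppargc1b to 10 of 12 for Hadh. When both WT libraries that stood apart were left out, an alternative added after seeing the data, Ppargc1b, Cd36 and Ucp2 remained.

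CPTH6 and ML324 were compared at the same labelled month and in the same genotype, with no dose given. edgeR called 0 of 33 members and 0% of the 15989 genes tested (11 members at an unadjusted p under 0.05). DESeq2 called 5 members higher with CPTH6 and 0 lower, against 0.984% and 0.762% of all genes it tested. In 14 members every CPTH6 library was above every ML324 library and in 0 below, against 12.3% and 7.73% of all genes. Ppargc1a stood at 22.2, 21.5 and 20.4 CPM with CPTH6 and 12.5, 12.6 and 11.8 with ML324, a difference of 0.75 (95% interval 0.49 to 1.01; adjusted p = 0.234 by edgeR and 0.00173 by DESeq2). Slc25a20 stood at 36.4, 47.2 and 42.7 and 30.4, 25.7 and 24.4 CPM, a difference of 0.60 (0.30 to 0.91; adjusted p = 0.235 and 0.0222). Hadhb, Acaa2 and Acadm had 0.51, 0.47 and 0.43 in the same direction and passed in DESeq2. Of the regulators not called by either tool, Ppargc1b had -0.55 (-1.14 to 0.05), Pdk4 0.55 (0.04 to 1.05) and Ppara -0.10 (-0.86 to 0.67). Intervals this wide do not show that the compounds act alike. The median of CPTH6 minus ML324 was 0.17 over the mitochondrial genes, 0.20 over the peroxisomal enzymes and -0.02 over all genes.

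No untreated library at 3 months was analysed here, so each compound was set against untreated PLD at 2 months, and compound, month and library set cannot be told apart. Both comparisons share those 3 untreated libraries. With CPTH6, 2 members were called higher and 4 lower, against 9.39% and 13.7% of all genes (23.1% in both directions). Libraries did not overlap for 4 members that were higher and 7 that were lower, against 17.7% and 24.4% of all genes. Acadm stood at 105, 126 and 90.9 CPM untreated and 136, 156 and 138 with CPTH6, a rise of 0.43 ± 0.12 (adjusted p = 0.0338, edgeR). Ppargc1a rose by 0.62 ± 0.18 (adjusted p = 0.0336). Ppargc1b went from 6.52, 10.5 and 5.68 to 3.03, 3.02 and 3.28 CPM, a change of -1.27 ± 0.28 on the log2 scale (adjusted p = 0.0103) that held without each library in turn. Acadsb (-0.65 ± 0.16), Cpt2 (-0.60 ± 0.18) and Crat (-0.43 ± 0.11) were lower as well. The calls other than Ppargc1b were each lost without at least 2 of the 6 libraries, and that of Cpt2 without any 1 of them. Pdk4 had 0.69 ± 0.27 (adjusted p = 0.101 by edgeR and 0.0388 by DESeq2), and Ppara, called by neither tool, had -0.36 ± 0.33. DESeq2 also called Hadhb (0.39, adjusted p = 0.0445), which edgeR did not (adjusted p = 0.0587). The median over the 33 members was 0.01, and Hadha (0.14), Cpt1a (0.05) and Acaa2 (-0.03) were not called.

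With ML324, 0 members were called higher and 7 lower, against 7.96% and 11.4% of all genes (19.4% in both directions). Libraries did not overlap for 0 members that were higher and 15 that were lower, against 14.5% and 23.1% of all genes. Slc25a20 went from 38.5, 46.5 and 40.5 CPM untreated to 30.4, 25.7 and 24.4, a change of -0.59 ± 0.13 on the log2 scale (adjusted p = 0.0134, edgeR). Acaa2 went from 140.3, 182 and 139 to 113, 97.7 and 103 CPM, a change of -0.51 ± 0.13 (adjusted p = 0.0219). In both genes the groups did not overlap. The other calls were Ehhadh (-0.84 ± 0.23), Cpt2 (-0.65 ± 0.18), Ucp2 (-0.62 ± 0.18), Eci2 (-0.48) and Crat (-0.42). When a library was left out 1 to 5 members were called, and the share of all genes in those fits is not given here. The call of Slc25a20 was lost without ML324 replicate 3, and that of Acaa2 without ML324 replicate 2 or 3 or PLD replicate 2. DESeq2 also called Acadsb lower (-0.48, adjusted p = 0.0448), which edgeR did not (-0.50, adjusted p = 0.0525). Of the regulators, Ppargc1b had -0.73 ± 0.27 (adjusted p = 0.094), Ppargc1a -0.13, Pdk4 0.14 and Ppara -0.26, and none of these passed. The median over the 33 members was -0.16. Endothelial sums were 177 to 297 CPM with CPTH6 and 122 to 613 with ML324, and stellate cell and fibroblast sums 344 to 420 and 275 to 904, against 510 to 1322 and 3212 to 7359 in untreated PLD. With each compound edgeR called 10 of 10 markers of the latter list and 5 of 9 tested macrophage markers lower. The sum of 8 lymphocyte and neutrophil markers was 16.1 to 47.5 CPM in untreated PLD, 88.9 to 677 with CPTH6 and 125 to 613 with ML324, with 2 of 4 tested called higher in each. The part of these markers in these differences was not tested.

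**Figure D5:**
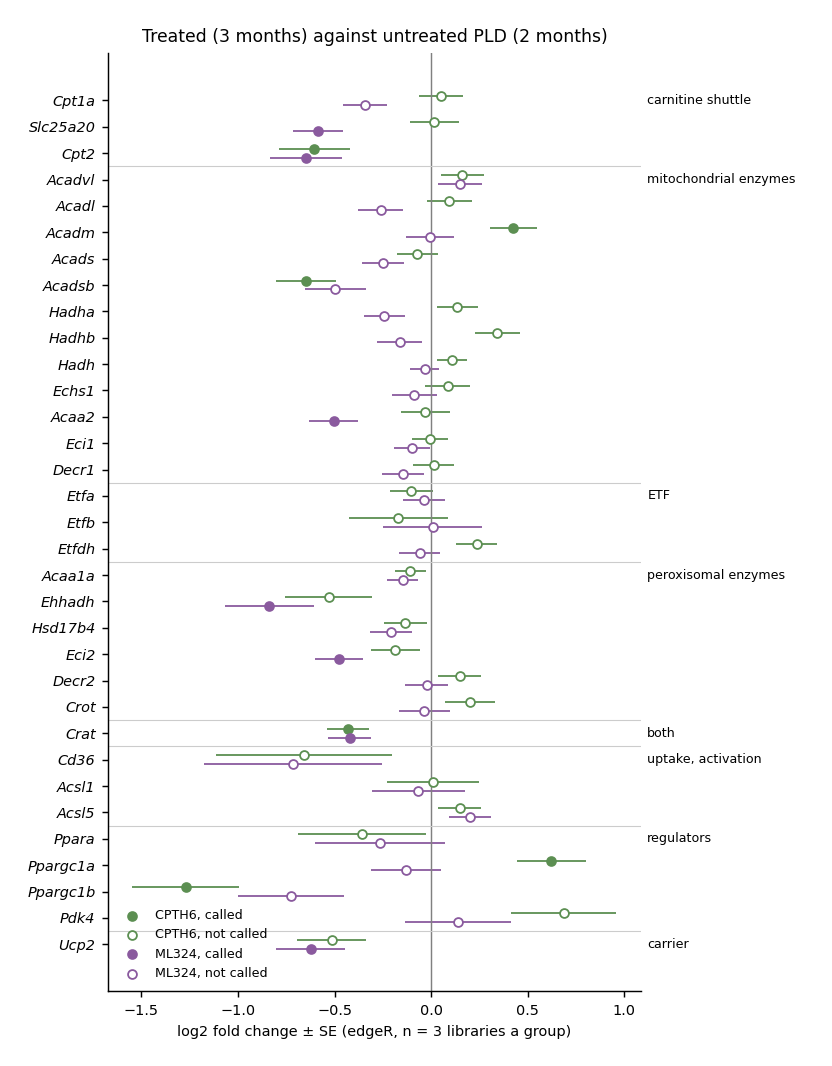
Change with CPTH6 (green) and with ML324 (purple), both at 3 months, against the same untreated PLD libraries at 2 months. Points are edgeR log2 fold changes, bars are standard errors (n = 3 libraries a group), and filled points are called. Slc25a20 and Acaa2 lie near 0 with CPTH6 (0.02 and -0.03) and at -0.59 and -0.51 with ML324.

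Other genes of the same pathways were counted at 2 months from lists of known function, beside 19.7% of all genes called higher and 20.3% lower (40% in both directions). Of 12 tested partners and targets of PPAR factors, 6 were called higher and 2 lower, led by Vnn1, a pantetheinase and PPAR alpha target (3.44 ± 0.32, adjusted p = 9.51e-05, edgeR), the receptor Ppard (1.00 ± 0.12) and the estrogen-related receptor Esrra (1.30 ± 0.18). Of 16 further peroxisomal oxidation and import genes 6 were higher and 1 lower, among the former Acaa1b, the close copy of Acaa1a (2.77 ± 0.31, adjusted p = 0.000159). Of 16 peroxisome assembly genes 7 were higher and 0 lower, among them the import receptors Pex7 (0.72 ± 0.15) and Pex5 (0.37 ± 0.08) and the docking factor Pex26 (1.21 ± 0.28). Of 15 further mitochondrial oxidation genes 4 were higher and 1 lower, with Acacb, whose malonyl-CoA inhibits Cpt1a, lower (-1.40 ± 0.23), and the thioesterase Acot2 (0.96 ± 0.18) and the carnitine importer Slc22a5 (0.78 ± 0.15) higher. Of 12 further uptake and activation genes 3 were higher and 6 lower, with the binding proteins Fabp3 up (1.93 ± 0.27), Fabp4 down (-4.77 ± 0.65) and the transport protein Slc27a3 down (-1.34 ± 0.20). Of 5 ketone body enzymes 2 were higher, among them the dehydrogenase Bdh1 (3.05 ± 0.42), and 1 was lower, the thiolase Acat1 (-0.41 ± 0.12). In the tricarboxylic acid cycle Sdhd (0.77 ± 0.10), Suclg1 (0.56 ± 0.11) and Mdh2 (0.40 ± 0.10) had the smallest adjusted p of the 7 called. Fabp4 is also known from capillary endothelium, whose markers fell as given above.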

How the data were processed

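The authors deposited 1 count table per library. Per the submitters' processing notes the tools were STAR 2.7.4a, SAMtools 1.12, featureCounts 1.6.0 and DESeq2 1.26.0 on mm10. Per the file headers the counts are read pairs per gene, without strand, and without pairs that fit several genes. Counts were tested with edgeR 4.0.16 (R 4.3.3): filterByExpr, TMM factors, a quasi-likelihood test with a mean per group, and Benjamini-Hochberg adjustment over the 15989 to 17749 genes tested. The 12 untreated libraries shared 1 fit (8 residual degrees of freedom), the 6 treated libraries another (4), and these with untreated PLD at 2 months the last (6). Log2 CPM adds a prior count of 2. Of the members, 33 of 33 passed the filter in each of the 8 comparisons. On simulated counts of 17749 genes for PLD against WT at 2 months, edgeR called 1.49% of genes changed 1.5-fold. It called 19.4% of those changed 2-fold, 62.1% of those changed 4-fold and 3 unchanged genes. The simulation changed 67 genes 1.5-fold, 67 genes 2-fold and 66 genes 4-fold, while 7091 genes were called in the data. The adjusted threshold is stricter where fewer genes change, so these rates do not describe the members in that comparison.

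The members and lists were chosen with earlier results of these data known, and the fit without 2 WT libraries was added after seeing the data. Values are given for up to 4 called members in each direction with the largest change (the 2 with the smallest p where none was called), for related enzymes of both compartments and for regulators, and for up to 3 called genes of each other list with the smallest adjusted p, except some genes that are not reported here. Other members that the text describes were chosen after their values were seen. Alternatives were DESeq2 1.42.0, other scaling, no filter, a replicate block, marker covariates, only the compared groups, and leaving out libraries.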

Additional observations from a re-analysis of the deposited data

Results flagged for a closer look

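In 6 members the genotype effect was called different between 2 months and 1 month (edgeR test of that difference, adjusted over 17749 genes). Of these 5 were called higher and 1 lower, against 2.55% and 3.13% of all genes (5.68% in both directions). Each call was lost when some single library was left out. The number of such libraries was 2 for Ppargc1b, 5 for Cd36, 8 for Ucp2, 9 for Eci2, 9 for Acsl1 and 10 for Hadh. How many of all genes were called in those fits is not given here. The genotype effect of Ppargc1b was higher at 2 months by 2.22 on the log2 scale (adjusted p = 0.0213), that of Acsl1 by 1.43 (0.0427), that of Ucp2 by 1.19 (0.0332), that of Eci2 by 0.90 (0.041) and that of Hadh by 0.77 (0.0486). The difference for Cd36 was -3.26 (0.0226). For Ppargc1b the 3 PLD libraries were below the 3 WT libraries at 1 month and above them at 2 months. The endothelial sum of WT libraries was 1995 to 5338 CPM at 1 month and 6774 to 12040 at 2 months, and its part in these differences was not tested.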

How the results depend on the processing

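The main tests treated the libraries as unpaired. As deviations from their group means, same-numbered libraries of compared groups never had a correlation over 0.1 for all 3 numbers. The WT groups of the 2 months came nearest, with 0.08, 0.198 and 0.152. With 3 libraries a group this cannot exclude pairing. With the replicate block, 1 member in place of 3 was called at 1 month, 4 in place of 8 over time in PLD and 3 in place of 6 in the test of the difference, and no other count of called members moved by over 1.5 times.

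At 1 month, library totals, no filter and the hepatocyte covariate each gave 1 called member in place of 3, a fit of the compared groups alone gave 0, and leaving out both WT libraries that stood apart gave 5. At 2 months 22 members became 2 with the endothelial covariate (1 of the 22, and 1 not called before), under which Acads (-0.25, adjusted p = 0.663), Ucp2 (-0.012, 0.991) and Acadsb (0.17, 0.784) reversed. Over time in PLD, 8 became 13 with DESeq2 and with the compared groups alone, and 5 with library totals. Over time in WT, 0 became 1 without the filter. For the difference between months, 6 became 16 with DESeq2, 2 with library totals and 3 without both WT libraries. Between the compounds, 0 became 5 with DESeq2 and 3 without the filter. For ML324 against untreated PLD, 7 became 2 with the compared groups alone. The share of all genes called under each setting is not given here. These moves are therefore not results about the members alone, and their cause was not tested.

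Leaving out 1 library at a time gave 0 to 5 called members at 1 month, 17 to 21 at 2 months, 0 to 3 over time in PLD, 0 to 0 over time in WT, 0 to 9 for the difference between months, 0 to 0 between the compounds, 1 to 7 for CPTH6 and 1 to 5 for ML324. The count of 5 at 1 month was without WT replicate 3. A group left with 2 libraries has fewer residual degrees of freedom. As the share of all genes called without each library is not given here, these counts are not results about the members alone. Over the called members and the alternatives run, 482 of 735 values kept direction and call, 250 kept direction and lost the call, and 3 reversed. Library totals moved the median of all genes at 2 months to -0.14, beside 0.38 for the members, and for CPTH6 against untreated PLD to -0.13, beside -0.09. With 3 libraries a group, a difference that was not called may be missed rather than absent.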

Other observations

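Among other genes of the pathway, some changes appeared outside the comparison at 2 months (edgeR, adjusted over all genes tested). Vnn1, a pantetheinase and PPAR alpha target, was already higher in PLD at 1 month (2.45, adjusted p = 0.00369), as was the binding protein Fabp3 (1.36, 0.0205). The phytanoyl-CoA hydroxylase Phyh (-0.59, 0.0228) and Acacb (-0.95, 0.0418) were lower. Against the same untreated PLD libraries, Acsl3, an acyl-CoA synthetase of lipid droplets, was higher by 1.10 with CPTH6 (0.000391) and by 1.00 with ML324 (0.000847). Rxra, the partner receptor of PPAR factors, was lower by -0.74 with CPTH6 (0.00691) and by -0.75 with ML324 (0.00833), and Pex26 by -0.68 (0.00693) and -0.82 (0.00409). Angptl4, a lipase inhibitor and PPAR target, was lower with ML324 (-1.27, 0.0109). Compound and month cannot be told apart in these values.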
